A study of Mus musculus with 21 samples.

Results

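The 43 genes described here lost transcript in all 6 murine pancreatic ductal adenocarcinoma (PDAC) lines under the MEK inhibitor trametinib and were back at the parental level of the same line after drug withdrawal in at least 5 of them. They were chosen on measured values, out of 34478 genes in the deposited table. A gene had to have a mean of at least 50 normalized counts over the 6 parental samples, which 12655 genes had. Its resistant value had to lie at least 1 log2 unit below the parental value of the same line in all 6 lines, which held for 393 genes. Its P12 value had to lie within 1 log2 unit of the parental value in at least 5 lines, which left the 43 genes, or 10.9% of the lost genes. Differences are given throughout on the scale log2(normalized count + 1), which understates the change of low values. The other 350 lost genes serve as the comparison.

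The cells were primary lines grown from pancreatic tumors of mice that were Ptf1awt/Cre and Trp53loxP/loxP, in which Cre driven from the Ptf1a locus deletes Trp53 in the pancreas. All 4 states share these alleles. Parental cells (6 samples) had never seen the drug, resistant cells (6 samples) had been adapted to trametinib and were kept at 100 times the IC50 of their line, and cells called P5 (3 samples, lines #3, #7 and #9) and P12 (6 samples) were resistant cells passaged 5 or 12 times in medium without it. Lines #3 and #4 were derived from males and the others from females, each from the tumor of 1 mouse. There is 1 library per line and state, which makes the line the replicate. The study describes the resistant cells as clonal expansions, from genome sequencing of lines #3 and #9 only. For P5 of lines #7 and #9 a description in the labels gives 12 drug-free passages, against 5 in the sample names and in the study's methods, and the name P5 is kept here.

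RAS proteins signal through RAF and MEK to the kinase ERK, which phosphorylates ETS factors and other transcription factors and so drives the transcription of its targets. Among these targets are brakes on the pathway itself. DUSP phosphatases remove the activating phosphates from MAP kinases, while Sprouty and Spred proteins restrain signalling between the receptors and RAF. A MEK inhibitor stops ERK activation, and transcripts of such feedback genes are commonly used as a readout of pathway output.

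The depth estimated from the spacing of low values was 24.0 to 42.6 M reads per sample with a median of 32.7 M, at which 3 reads correspond to 2.31 to 4.07 normalized counts. These limits cover counting error only. The parental samples held transcripts of duct-type carcinoma cells at levels that differed widely, with Krt18 at 11364 to 86547 and Cdh1 at 816 to 53229 normalized counts. Krt19 was at 3074 to 55658, Krt8 at 546 to 92917, Krt7 at 142 to 63730 and Cldn4 at 7.96 to 745. Epcam, another epithelial marker, was listed at 0 in all 6 parental samples. The summed level of 7 epithelial markers was 15950 to 283038 in parental, 1014 to 209982 in resistant, 381 to 235130 in P5 and 489 to 205788 in P12 cells, and 0 of the 7 had the higher mean in resistant cells. Of 6 fibroblast markers, 5 had a higher mean in resistant than in parental cells, and their sum was 76.5 to 10384 in parental, 472 to 503700 in resistant, 369 to 75464 in P5 and 227 to 122743 in P12 cells. Lum, a fibroblast marker, did not exceed 0.908 in parental samples. Of 5 leukocyte markers, 4 had a higher mean in resistant than in parental cells, and their sum was 133 to 230 in parental, 178 to 376 in resistant, 169 to 416 in P5 and 149 to 229.6 in P12 cells. Most of that sum was Cd68, at 118 to 215 in parental and 166 to 348 in resistant cells, while the defining marker Ptprc stayed between 3.02 and 20.01 in all samples and Lyz2 reached 52.7 in P5. Sums of 4 endothelial markers were 36.8 to 166 in parental and 15.8 to 2753 in resistant cells, and of 4 acinar markers 42.7 to 283 and 0 to 522, with 2 markers of either list higher in the resistant mean. The endocrine markers Ins2, Gcg and Sst were at 0 in all parental samples. The part of these marker differences in the results below was not tested. In bulk RNA a lower level in every cell and fewer cells with the transcript cannot be told apart.

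Loss on the drug was deepest for 3 feedback inhibitors of the MAPK pathway and the ETS factor Etv5. The mean resistant minus parental difference over the 6 lines was -8.27 for Spry4, -8.09 for Etv5, -7.80 for Dusp4 and -7.31 for Dusp6, then -5.10 for Kirrel3, and it reached -1.32 for Rp2 at the shallow end. In a given line the median over the 43 genes lay between -2.90 (line #4) and -2.01 (line #9), and that of the other lost genes between -5.35 (line #6) and -3.33 (line #9). The 43 genes thus had the shallower median in each of the 6 lines. In the limma fit of all 4 states, 38 of the 43 genes were called lower in resistant than in parental cells (log2 difference beyond 1 with an adjusted p under 0.01), where 2.73% of the 19300 genes tested were called lower. This contrast was used by the choice and is given as a description. Within the limits of the choice, 14 genes were back in all 6 lines and 29 in 5.

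**Figure D1:**
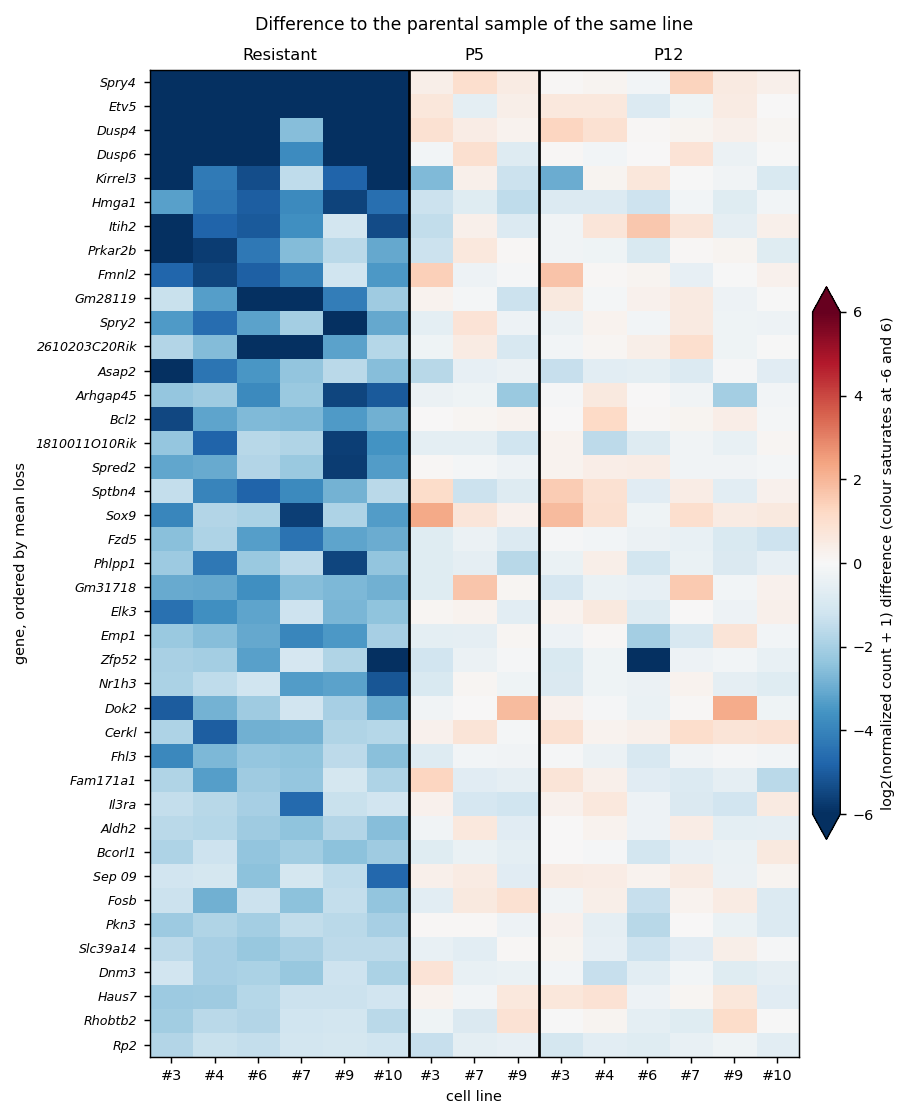
Difference of each resistant, P5 and P12 sample to the parental sample of its line on the log2(normalized count + 1) scale, for 41 of the 43 genes (rows, ordered by mean loss) and 15 samples (columns, by line). Resistant columns are blue throughout by the choice of the genes, and P5 and P12 columns are pale apart from single cells such as Zfp52 in P12 of line #6 at -8.20.

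Near the limits, the lowest parental means among the 43 genes were 53.4 for Sptbn4, 57.7 for Cerkl and 58.0 for Gm31718, and the nearest genes that met all other limits had 27.7 (Gm11496), 20.6 (Gm26947) and 19.7 (Dnajb13). The shallowest single-line losses inside included -1.003 for Zfp52 and -1.04 for Fam171a1, against -0.98 for Adgrl3, -0.97 for Dock1 and -0.95 for Ptpn9 outside. For the P12 limit, the fifth smallest distance from the parental level was 0.99 for Sox9, 0.99 for Gm31718 and 0.94 for Emp1 inside, and 1.00 for Plagl2, 1.02 for Cenpv and 1.02 for Ccnd1 outside. Ccnd1, which encodes cyclin D1, thus missed the choice by a small margin.

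The feedback inhibitors of the MAPK pathway made up the largest group in any of the 13 role lists, which were written with earlier results of these data known. Of all genes with a parental mean of at least 50, 0.34% were among the 43. Of 20 such genes with a parental mean of at least 50, 8 were lost in all lines and 5 of these were among the 43: the phosphatases Dusp4 and Dusp6, the Sprouty genes Spry2 and Spry4, and Spred2. Spry4 (chr18:38586247-38601347, GRCm38.p6) ranged from 619 to 1378 normalized counts in parental cells with a median of 1033. Its resistant values were 0 to 7.12 with a median of 2.90, and 5 of the 6 were at 3.54 or less, close to the level of 3 reads. P5 of lines #3, #7 and #9 held 1569, 2185 and 1375, and P12 684 to 2724 with a median of 1368. All parental, P5 and P12 values lay above all resistant values. Spry4 was higher in P5 than in resistant cells by 9.00 ± 0.50 (SE) on the log2 scale (limma adjusted p = 1.28e-09). The choice did not use P5, but it did use the resistant samples, and P5 and P12 share a withdrawn culture. This contrast, here and for the genes below, is therefore given as a description and not as independent support.

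Dusp6 (chr10:99263231-99267489), the phosphatase that acts on ERK in the cytoplasm, had 5249 to 9449 normalized counts in parental cells (median 6850) and 4.49 to 681 in resistant cells (median 43.4). Its P5 values were 8352, 18671 and 4664, and its P12 values 5098 to 16848 (median 5913). The resistant sample of line #7 at 681 stood above the other 5, of which the highest was line #3 at 60.7, and line #7 also had the highest P5 and P12 values. P5 exceeded resistant by 7.67 ± 0.91 (limma adjusted p = 0.000129). Dusp4 (chr8:34807610-34819894), a nuclear MAP kinase phosphatase, had a parental range of 1975 to 6482 (median 2749). Its resistant values were 4.12, 2.72, 19.2, 333, 0 and 40.7 in lines #3, #4, #6, #7, #9 and #10. Line #7 again kept the most, and line #9 had no counts. P5 held 5165, 2676 and 7473, which was 8.47 ± 1.13 above resistant (limma adjusted p = 0.00044). P12 of Dusp4 was 2235 to 8125 with a median of 3725.

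Spry2, an inhibitor of receptor tyrosine kinase signalling, had 1170 to 2406 in parental (median 1841) and 11.3 to 400 in resistant cells (median 163). P5 values of 1337, 2950 and 1229 in lines #3, #7 and #9 lay 3.79 ± 0.71 above resistant (limma adjusted p = 0.0088). Spred2, which binds neurofibromin and restrains RAS, had a narrow parental range of 2675 to 3859 (median 2948) and 74.3 to 865 in resistant cells (median 329). With 3018, 2713 and 3084, its P5 values lay within the parental range and 3.12 ± 0.46 above resistant (limma adjusted p = 0.00113). In resistant cells the lowest value of Dusp4, Dusp6, Spry2, Spry4 and Spred2 alike was that of line #9, and in 4 of them the highest was that of line #7, with Spred2 highest in line #6.

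Among the transcription factors that respond to ERK, Etv5, Hmga1, Elk3 and Fosb were among the 43, out of 32 list genes with a parental mean of at least 50 and 8 that were lost. Etv5 (chr16:22381313-22439570), a PEA3-type ETS factor, had 1561 to 3486 normalized counts in parental cells (median 2666) and 1.06 to 18 in resistant cells (median 10.2). P5 held 4402, 1947 and 4418, and P12 1099 to 4954 (median 3221). No resistant value came near those of the other states, and P5 exceeded resistant by 8.54 ± 0.58 (limma adjusted p = 3.66e-08).

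Hmga1, a chromatin architectural protein of proliferating cells, came back less far. Its parental values were 6191 to 19169 (median 16190), its resistant values 272 to 1911 (median 563), its P5 values 7577, 5811 and 6602, and its P12 values 5476 to 11429 (median 9459). P5 was 3.41 ± 0.46 above resistant (limma adjusted p = 0.000549) and 1.00 ± 0.46 below parental, a difference that missed the threshold (limma adjusted p = 0.467). P12 of Hmga1 was below the parental value of the line in 6 of 6 lines. The same held for other genes described here, among them Asap2, Fzd5, Fhl3, Zfp52 and Rp2. Reads of Hmga1 can be shared with near-identical copies, which leaves its counts uncertain.

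Elk3, a ternary complex factor of the ETS family, had 1951 to 5446 in parental (median 3711), 132 to 1686 in resistant (median 401) and 3192, 4621 and 3477 in P5 cells. P5 was 3.05 ± 0.53 above resistant (limma adjusted p = 0.00487). Fosb, a subunit of the AP-1 dimer, was weakly expressed, at 85.8 to 223 in parental, 21 to 47.7 in resistant and 76.1, 192 and 169 in P5 cells. Its P5 values all lay above the resistant ones, but the difference of 2.14 ± 0.51 missed the threshold (limma adjusted p = 0.0325).

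**Figure D2:**
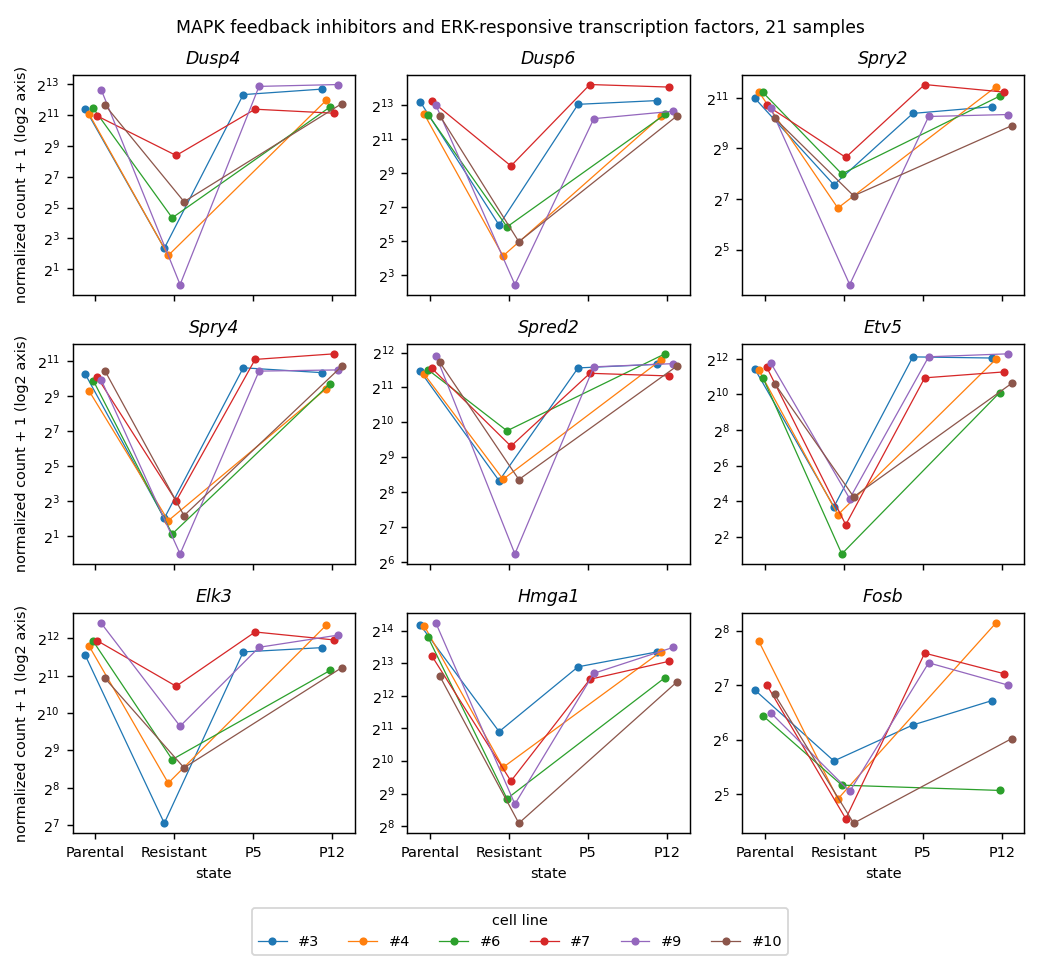
Normalized count + 1 (log2 axis, own range per panel) of 5 MAPK feedback inhibitors and 4 ERK-responsive transcription factors in parental, resistant, P5 and P12 samples, with 1 coloured line per cell line joining its states and no P5 sample for lines #4, #6 and #10. Resistant values form the low point of every line except Fosb in line #6, whose P12 value of 32.4 is below the resistant value of 34.7.

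The rest of both lists did not move as one. Of 17 feedback inhibitors tested that are not among the 43 genes, limma called 5 lower (Dusp7, Dusp9, Errfi1, Rasa2, Spred1) and 2 higher (Dusp14, Dusp8) in resistant than in parental cells, with a median difference of -0.94. Errfi1, an inhibitor of the EGF receptor, was lower by 3.01 ± 0.41 (limma adjusted p = 0.000111). It did not return within the limits, and neither did Spred1 or Rasa2, which were also lost in all 6 lines. Of 29 other transcription factors tested, 7 were called lower (Egr1, Egr3, Etv4, Fos, Fosl1, Hmga2, Klf5) and 2 higher (Atf3, Fosl2), with a median of -1.43. The ETS factor Etv4, the chromatin protein Hmga2 and the immediate early gene Egr1 differed by -10.46, -7.07 and -5.81. These 3 genes and Egr3 were lost in all 6 lines and missed the return limits.

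Over all 13 lists of general roles, 338 genes outside the 43 were tested and 34 were called lower and 9 higher in resistant cells (2.73% and 2.57% of all genes tested were). With the cell line as a replicate block the total of 43 called genes became 74. In that fit 1081 of all 19300 genes tested were called lower and 936 higher, against 527 and 496 without the block. Only 11 of the 43 genes stood in any list, the other 2 being Fmnl2 (cytoskeleton) and Bcl2 (apoptosis), and 9 lists held none. Among the lists without a member, adhesion had 8 of 27 genes lost in all lines (Itga2, Itga6, Itgb4, Cdh1, Cldn4, Cldn6, Cldn7, Ocln), and replication and mitosis, ribosome biogenesis, proteases and glycolysis had 0 lost. Limma called 0 of 29 replication genes and 0 of 30 ribosome biogenesis genes, with 6 and 10 of them at an unadjusted p under 0.05. Median differences in these lists were -0.37 and -0.33. For the remaining lists, called lower and higher genes numbered 3 and 1 of 30 growth factors, 2 and 0 of 31 receptors, 1 and 1 of 22 proteases, 7 and 1 of 29 adhesion genes, 0 and 1 of 27 cytoskeleton genes, 2 and 0 of 21 chemokine and inflammation genes, 1 and 1 of 23 cell cycle entry genes, 2 and 0 of 30 metabolic genes and 4 and 0 of 20 apoptosis genes.

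Beyond the pathway's own feedback, genes with other roles were called higher in P5 than in resistant cells, among them Bcl2, Sox9, Fmnl2, Emp1 and Fhl3. Bcl2 (chr1:106538176-106714290), which encodes the antiapoptotic founding member of its family, had 984 to 1794 normalized counts in parental cells (median 1134) and 25.5 to 179 in resistant cells (median 150). P5 held 1166, 1265 and 2044, each within 0.19 of the parental value of its line, and lay 3.65 ± 0.47 above resistant (limma adjusted p = 0.000325).

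Sox9 (chr11:112782210-112787757), a transcription factor of pancreatic ducts and progenitors, was the gene that exceeded its parental level most in P5. Parental values were 673 to 2421 (median 1541), resistant values 37.6 to 679 (median 244), and P5 values 4056, 3203 and 2919, above every parental value. The P5 minus resistant difference was 4.37 ± 0.77 (limma adjusted p = 0.00534), while P5 against parental, 1.31 ± 0.77, missed the threshold (limma adjusted p = 0.558). P12 of Sox9 was higher than parental in lines #3, #4, #7, #9 and #10 and lower in line #6.

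Fmnl2, a formin that builds actin filaments at the cell edge, had 3143 to 6491 in parental (median 3872), 69.1 to 2792 in resistant (median 237) and 8507, 4971 and 6273 in P5 cells. The resistant sample of line #9 at 2792 was far above the next highest, line #10 at 412. P5 exceeded resistant by 4.59 ± 0.76 (limma adjusted p = 0.0038). Emp1, an epithelial membrane protein, had 29605 to 54119 in parental, 2883 to 10458 in resistant and 32429, 29491 and 40809 in P5 cells, a difference of 2.58 ± 0.41 (limma adjusted p = 0.00251). Fhl3, a LIM domain protein, had 1384 to 1892 in parental, 94.1 to 513 in resistant and 818, 1310 and 1296 in P5 cells, a difference of 2.03 ± 0.34 (limma adjusted p = 0.00417). The 3 P5 values of Fhl3 were nonetheless below all 6 parental values.

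Several of the deepest losses varied widely between lines and passed no threshold in P5. Kirrel3, a cell adhesion molecule of the immunoglobulin superfamily, had 301 to 1836 in parental and 4.33 to 628 in resistant cells, and 266, 2247 and 121 in P5. P5 exceeded resistant by 3.75 ± 1.23 (limma adjusted p = 0.125), with line #7 high and lines #3 and #9 low. Itih2, a hyaluronan-binding serum protein, had 752 to 6825 in parental, 10.7 to 532 in resistant and 268, 8549 and 645 in P5 cells (3.86 ± 1.22, limma adjusted p = 0.109). Prkar2b, a regulatory subunit of protein kinase A, had 531 to 2741, 4.57 to 897 and 299, 831 and 2889 (3.67 ± 1.09, limma adjusted p = 0.0884). In all 3 genes the parental levels also differed widely between the lines. Gm28119, a predicted gene, had 95.2 to 244 in parental, 1.00 to 36.5 in resistant and 110, 160 and 101 in P5 cells (3.68 ± 0.72, limma adjusted p = 0.0119).

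A noncoding host of microRNAs was among the deepest 12. The gene listed as 2610203C20Rik corresponds to Mir100hg in RefSeq (chr9:41376526-41615185), a long noncoding RNA whose locus holds the genes of miR-100, let-7a-2 and miR-125b-1. It had 5608 to 13984 normalized counts in parental cells (median 8378), and 2426, 1023, 73.2, 76.4, 1499 and 1685 in resistant cells of lines #3, #4, #6, #7, #9 and #10. Lines #6 and #7 thus lost far more than the other 4. P5 held 6999, 12773 and 7109 and P12 5539 to 18695 (median 9037), and the P5 minus resistant difference of 3.90 ± 0.88 missed the threshold (limma adjusted p = 0.0247). The table measures the host transcript and not the mature microRNAs, whose sequences (RefSeq, GRCm38.p6, 5′ to 3′, seed bases 2 to 8 in capitals) are shown for the main arms of miR-100 and miR-125b because they are what the locus is known for.
mmu-miR-100-5p: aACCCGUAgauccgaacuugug
mmu-miR-125b-5p: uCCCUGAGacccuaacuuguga
Their seeds differ, so that the arms belong to different families.

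The remaining genes covered receptors, signalling adaptors, metabolism and vesicle traffic. Fzd5, a Wnt receptor, had 3516 to 7652 in parental, 271 to 1720 in resistant and 2648, 4589 and 1988 in P5 cells. Phlpp1, a phosphatase of AKT, had 1832 to 3336, 73.4 to 644 and 1281, 1254 and 1047, so that its P5 values, like those of Fhl3, lay below all parental values. These were 2 of the 43 genes with such a separation, which 2.32% of all genes tested showed. Dok2, an adaptor that restrains RAS signalling, had 1589, 166, 246, 1978, 59.3 and 1058 in parental cells of lines #3, #4, #6, #7, #9 and #10. Il3ra, the alpha chain of the interleukin-3 receptor, had 168 to 867 in parental and 33.4 to 339 in resistant cells. Aldh2, the mitochondrial aldehyde dehydrogenase, had 6632 to 16754 in parental and a tight 2180 to 2857 in resistant cells, with 5696, 19721 and 5368 in P5. Nr1h3, the oxysterol receptor LXR alpha, had 79.0 to 618 and 7.70 to 106. Slc39a14, a zinc and iron importer, had 3298 to 5360 in parental, 919 to 1758 in resistant and 3343, 2637 and 5507 in P5 cells. The mean losses of the genes in the shallow part of the order lay between -2.07 (Fam171a1) and -1.32 (Rp2).

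Rp2, which acts on the small GTPase ARL3, had the shallowest mean loss. It had 936 to 1920 in parental, 365 to 906 in resistant, 519, 1288 and 893 in P5 and 608 to 1389 in P12 cells, and its P5 minus resistant difference of 0.73 ± 0.33 was the smallest of the 43 (limma adjusted p = 0.291). With the cell line as a block, P12 of Rp2 was below parental by 0.63 ± 0.13 (limma adjusted p = 0.0147), short of the threshold. One row is listed under the date-like name Sep 09, and its gene is not identified here. It had 5433 to 11585 in parental, 243 to 4069 in resistant and 6620, 7788 and 7306 in P5 cells.

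The P5 samples are the part of the data that the choice did not use, although the resistant and parental samples they are compared with were used. P5 and P12 of a line also descend from the same withdrawn culture, and the deviations of P5 and P12 of a line from their state means correlated over all genes tested with r = 0.826 to 0.878 in the 3 lines. The P5 values therefore repeat much of what P12 of the same line held. All 43 genes were above the resistant value of the same line in all 3 lines, and 33 were at least 1 log2 unit above it in all 3. In lines #3, #7 and #9, 90.7%, 93.0% and 86.0% of the 43 genes were at least 1 log2 unit above it. The other lost genes reached 64.3%, 82.6% and 58.3% by the same measure, and all genes tested 17.1%, 22.1% and 14.95%. Much of the rise in P5 was thus shared by the other lost genes, most of all in line #7. In 29 genes all 3 P5 values lay above all 6 resistant values, as in 3.02% of all genes tested and in 87 of the 350 other lost genes. Limma called 14 of the 43 higher in P5 than in resistant cells and 0 lower, where 0.29% of all genes tested were called higher, and 29 of the 350 other lost genes. The 14 genes included Bcl2, Dusp4, Dusp6, Elk3, Emp1, Etv5, Fhl3, Fmnl2, Hmga1, Sox9, Spred2, Spry2 and Spry4.

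With the cell line as a replicate block limma called 21, the 14 and Aldh2, Bcorl1, Cerkl, Fzd5, Gm31718, Pkn3 and Slc39a14. That fit called 84 of all 19300 genes tested higher, against 56 without the block, and 41 of the 350 other lost genes. The number of calls rested on the samples in the fit. Leaving out 1 of the 6 lines left 6 (without #3) to 9 (without #4 or #10) called genes, and 8 without #6, #7 or #9. Of the 14 genes, Spry4, Etv5, Dusp6 and Bcl2 were called whichever line was left out, Sox9 in none of these fits. A fit of P5 and resistant samples alone called Spry4 and Etv5, and with the block it called 0 of the 43 and 0 of all genes tested, with 40 of the 43 and 1868 of all genes at an unadjusted p under 0.05.

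Against parental cells, limma called 0 of the 43 genes in P5 (5 genes, or 0.0259%, of all tested), with 1 of the 43 at an unadjusted p under 0.05, and the same fit with the block also called 0, with 3 at an unadjusted p under 0.05. Against P12 it called 0 of the 43 and 0% of all genes, with 0 of the 43 and 130 of all genes at an unadjusted p under 0.05. With 3 samples, missing the threshold does not show equal levels. Within 1 log2 unit of the parental value of the line were 30 of the 43 genes in line #3, 40 in line #7 and 34 in line #9, or 69.8%, 93.0% and 79.1%. For the other lost genes these shares were 14.9%, 41.7% and 28.0%, and for all genes tested 61.0%, 73.0% and 72.8%. The same was true in all 3 lines for 22 of the 43 genes, in 2 lines for 17 and in 1 line for 4.

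The median over the 43 genes of P5 minus parental was -0.25, -0.10 and -0.32 in lines #3, #7 and #9. When samples were rescaled to their upper quartile, which raised the median of all genes in P5 against parental from 0.02 to 0.17, the medians became 0.08, -0.14 and -0.12, so that the sign in line #3 turned. The share of the log2 loss that P5 had regained had a median of 86.0%, 98.5% and 91.2% in lines #3, #7 and #9, against 40.5%, 81.1% and 45.3% in the other lost genes. The median P5 minus resistant difference in these lines was 2.14, 2.52 and 2.11 for the 43 genes. For the other lost genes it was 2.04, 2.88 and 1.62. The other lost genes had the deeper median loss, so the higher shares do not show a larger rise of the 43 genes. Lowest in P5 against parental on the mean over the 3 lines were Kirrel3 (-1.23), Hmga1 (-1.18), Phlpp1 (-0.98), Arhgap45 (-0.94), a GTPase activating protein, and Asap2 (-0.82), an ARF GTPase activating protein. Highest were Sox9 (1.10), Spry4 (0.62), Dok2 (0.56), Dusp4 (0.53) and Fmnl2 (0.37). The median P5 minus P12 difference was -0.28, -0.04 and -0.18, and P5 lay below P12 in 35, 23 and 35 of the 43 genes.

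**Figure D3:**
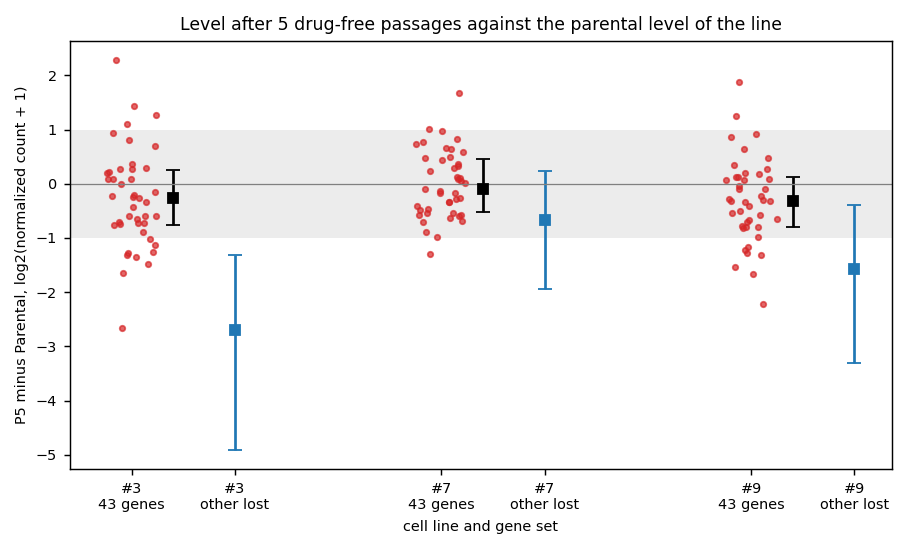
P5 minus parental of the same line, log2(normalized count + 1), in lines #3, #7 and #9, with 1 red point for each of the 43 genes, black squares and bars for their median and quartiles and blue squares and bars for those of the 350 other lost genes. The grey band marks 1 log2 unit to either side of parental and holds 30, 40 and 34 of the 43 genes, while the medians of the other lost genes are -2.69, -0.67 and -1.57.

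Return in P12 was part of the choice and is given as a description. Limma called 31 of the 43 genes higher in P12 than in resistant cells (1.28% of all genes tested) and 0 of the 43 between P12 and parental cells (0.114% of all genes tested), with 1 of the 43 at an unadjusted p under 0.05. The allowance of 1 line outside the limits was used by 29 genes. The exceptions were uneven over the lines: 7 in line #3 (4 above parental, 3 below), 3 in line #4, 9 in line #6 (8 below), 4 in line #7 (all above), 4 in line #9 and 2 in line #10. Line #6 also had the lowest median of P12 minus parental, -0.41, against -0.23 to 0.13 in the other 5 lines. For the other lost genes that median was -3.24 in line #6, -2.38 in line #3, -2.15 in line #4, -1.42 in line #9, -0.59 in line #7 and -0.59 in line #10. Of those 350 genes, 234 stayed below the limit in at least 2 lines with none above, 13 overshot in at least 2 lines with none below, and 47 stayed below it in all 6.

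Single lines departed far from parental in a few genes. Zfp52, a zinc finger gene of a large family in which reads may be shared, had 461, 156, 293, 466, 350 and 107 in parental cells of lines #3, #4, #6, #7, #9 and #10 and 247, 132, 0, 381, 313 and 78.0 in P12. It was absent in P12 of line #6 alone, at -8.20 from parental, and also in resistant cells of line #10. Kirrel3 was at 214 in P12 of line #3 against 1690 in its parental sample (-2.97), and P5 of that line was at 266. Dok2 was at 282 in P12 of line #9 against 59.3 in its parental sample (2.23), where P5 was at 221. In both genes P5 and P12 of the line departed to the same side.

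To see how far the pattern carried to a line that had no part in the choice, the genes were chosen anew on 5 lines, with return in at least 4 of the 5, and looked up in the line left out. Between 56 and 81 genes were chosen each time. In the line left out, P12 was within 1 log2 unit of parental for 55.2%, 80.0%, 49.3%, 66.7%, 74.0% and 89.3% of them when lines #3, #4, #6, #7, #9 and #10 were left out. For other genes lost in the same 5 lines the shares were 19%, 26.5%, 13.5%, 46.7%, 40.6% and 53.2%. The chosen genes had the higher share in 6 of 6 lines. Pooled over the lines, 68.1% of 408 gene and line pairs returned against 34.4% of 2406 pairs of the other lost genes and 78.0% of all genes with a parental mean of at least 50, and 55.9% met both the loss and the return limit against 24.98% and 8.70%. The 6 choices share most of their samples and genes, and no test was made. Of the 43 genes, between 42 and 43 were chosen again each time. The rule nearly fixes this number and it shows no stability. A gene that meets the loss and return limits on 6 lines also meets them on any 5. Only the parental mean of at least 50 could drop it.

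**Figure D4:**
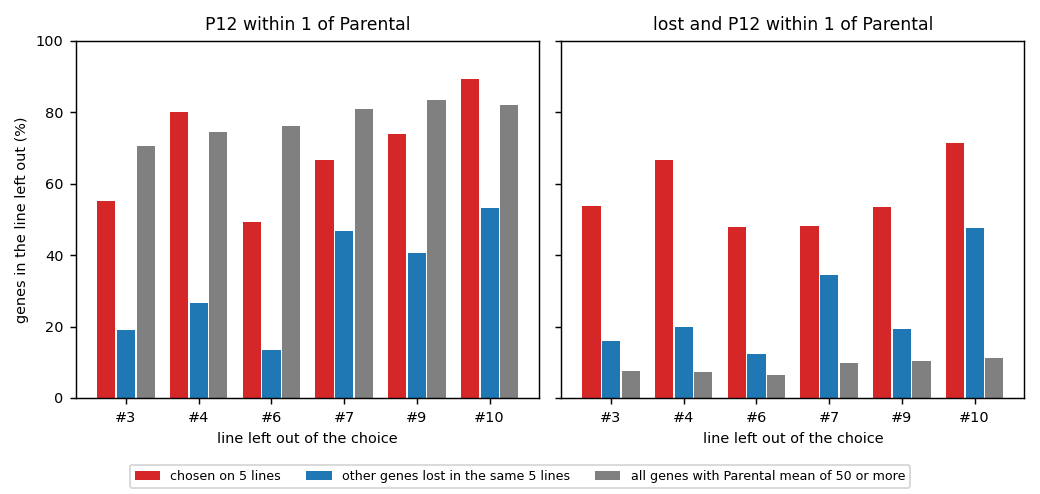
Percentage of genes that met the limits in the line left out of the choice (x axis), for genes chosen on the other 5 lines (red), other genes lost in the same 5 lines (blue) and all genes with a parental mean of 50 or more (grey), with the return limit alone on the left and both limits on the right. Red bars exceed blue bars in all 6 lines on both sides, and the lowest red bar for return is line #6 at 49.3%.

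In the genome, 39 of the 43 genes are annotated as protein coding in RefSeq and 2 as long noncoding RNA, and 2 could not be matched. Phlpp1 and Bcl2 are neighbours on chromosome 1 with 144 kb between them. On chromosome 14, 479 kb separate Rhobtb2 and Slc39a14 and 414 kb separate Slc39a14 and Dok2. Bcorl1, Haus7 and Rp2 lie on the X chromosome.

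Promoter windows of 250 bases before to 50 bases after a RefSeq transcription start (GRCm38.p6) could be matched for 29 of the 43 genes. They were searched on both strands for 6 motifs, none of which contains another. A gene could have several windows at different starts, and a match in any of them counted. The AP-1 letters TGANTCA occurred in 4 of the 29 genes (13.8%), against 8.97% of all genes with a window, 6.18% of those with a parental mean of at least 50 and 9.02% of the other lost genes. The 4 genes were Itih2, Gm31718, Emp1 and Pkn3. The ETS letters CCGGAAG occurred in 1 of the 29 (3.45%), Gm31718, against 9.93% of all genes, 20.9% of those with a parental mean of at least 50 and 7.79% of the other lost genes. The E-box CACGTG occurred in 3 (10.3%), Prkar2b, Arhgap45 and Bcorl1, against 8.09%, 11.8% and 7.79% of these sets. The cyclic AMP response element TGACGTCA, the TATA box TATAAA and the CArG box occurred in 0 of the 29 genes. Their shares were 2.03%, 15.7% and 1.81% of all genes and 3.70%, 8.504% and 1.57% of those with a parental mean of at least 50. A match is no evidence of binding, and its absence covers only these windows. The AP-1 matches are shown with 10 bases on either side and the motif in capitals, 5′ to 3′ on the strand of the gene, as the sequences that the AP-1 count rests on.
Itih2, chr2:10130816-10130842, minus strand: tgtttgacccTGACTCAtgctcacagc
Gm31718, chr8:126853290-126853316, minus strand: gttgaggcagTGACTCAgggcttgaaa
Emp1, chr6:135362776-135362802, plus strand: tctgtgtgtcTGAGTCAgagggagcta
Emp1, chr6:135362896-135362922, plus strand: aaatccagacTGATTCAtagaaactcc
Pkn3, chr2:30078560-30078586, plus strand: ggcagcgaggTGACTCAggaccccggt
Emp1 carried the motif at 2 positions, beginning 145 and 25 bases before the transcription start of its window. The motifs of Itih2, Gm31718 and Pkn3 began 149, 58 and 128 bases before the starts of theirs. For Emp1, Gm31718 and Pkn3 the start and the motif lay inside the annotated span of the gene, downstream of its outermost start. Of these 4 genes, Emp1 was called higher in P5 than in resistant cells. Gm31718, a long noncoding RNA, had 28.65 to 93.6 in parental, 2.34 to 11.8 in resistant and 55.3, 177 and 31.5 in P5 cells. Pkn3, a protein kinase of the PKN family, had 1329 to 2640 in parental, 341 to 679 in resistant and 1660, 1995 and 1084 in P5 cells.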

How the data were processed

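RNA of 21 samples from 6 murine PDAC lines was analysed, with state and line taken from the sample labels. The authors prepared stranded mRNA libraries from 100 ng RNA, trimmed adapters with Skewer, quantified transcripts with salmon 0.12, used TXImport for gene-level counts and normalized these with DESeq2 1.18. The build is mm10 per the labels. The deposited table holds signal values, namely DESeq2-normalized counts per gene, from which raw counts could not be recovered, so limma was used on log2 values. The study names 2 sequencer models without assigning samples, so no comparison within batches was possible. In the main fit, p-values rest on the spread between samples of a state, and the samples of a line in different states are treated as independent. With the cell line as a block they rest on the spread that is left within lines.

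The 19300 genes that reached 10 normalized counts in 3 or more samples were fitted with limma 3.58.1 (R 4.3.3, trend, pseudocount 1) in 1 fit of 4 states, with Benjamini-Hochberg adjustment. Calls required an adjusted p under 0.01 with a log2 difference beyond 1 in either direction. The numbers pair the samples, since same-numbered samples come from the same cell line. Deviations of parental and resistant samples of a line from their state means correlated with r = 0.159 to 0.352. For parental and P12 samples r was 0.008 to 0.510, and for P5 and parental samples -0.105 to 0.535. It was 0.337 to 0.520 for resistant and P12 samples and 0.537 to 0.572 for P5 and resistant samples. Estimated depth was 24.0 to 42.6 M reads per sample.

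Genes named by rule were the 12 deepest losses, up to 4 members per role list, the 3 nearest each side of a limit, the 5 lowest and 5 highest in P5, up to 5 called per P5 comparison and direction by size, and the 3 farthest in P12. The members and lists were chosen with earlier results of these data known. Spred2, Fhl3, Pkn3, Fzd5, Il3ra, Aldh2, Nr1h3, Slc39a14, Rp2 and Sep 09 fall outside this rule and were picked after their values were seen. Sequences and positions come from RefSeq (GRCm38.p6). Alternatives were other pseudocounts, filters, scaling, thresholds, sample sets and the cell line as a block. A few items, among them single genes counted among the 43, are not reported here. Python 3.11.15 was used.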

Additional observations from a re-analysis of the deposited data

Results flagged for a closer look

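In 129 groups of 6 samples (43 genes in parental, resistant and P12 cells), 7 held a sample far from the other 5 by Dixon's criterion on log2 values, or 5.43%. Chance flags about 1 in 20 groups. Bcl2 in parental cells of line #9 was at 1794 normalized counts, with the next highest at 1182, and in resistant cells of line #3 at 25.5, with the next lowest at 124. Phlpp1 in P12 of line #4 was at 3437, with the next highest at 1842. Zfp52 was at 0 in resistant cells of line #10, with the next lowest at 29.9, and at 0 in P12 of line #6, with the next lowest at 78.0. Fhl3 was at 94.1 in resistant cells of line #3, with the next lowest at 273, and at 957 in P12 of line #6, with the next lowest at 1289. Lines #3 and #6 held 2 of the 7 each, lines #4, #9 and #10 held 1 each and line #7 held 0.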

How the results depend on the processing

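The number of chosen genes was 43 and became 14 with return required in 6 of 6 lines, 85 with at least 4 of 6, 99 with loss in at least 5 of 6, and 56 to 81 with 1 line left out. Genes called higher in P5 than in resistant cells numbered 14, and 22 after rescaling to the upper quartile (median of all genes from 0.03 to 0.27), 27 at an adjusted p below 0.05, 2 in a fit of both states alone, 0 when that fit also had the replicate block, a setting added after seeing the data, and 6 to 9 with 1 line left out. The replicate block in the fit of all 4 states gave 21, and 42 in place of 38 genes lower in resistant than in parental cells and 40 in place of 31 higher in P12 than in resistant cells. Over all 19300 genes tested the block gave 84 in place of 56, 1081 in place of 527 and 486 in place of 248, in the same order. Of the chosen genes, those lower in resistant than in parental cells numbered 25 to 35 with 1 line left out. Those higher in P12 than in resistant cells numbered 12 in a fit of both states alone and 18 to 30 with 1 line left out. Called genes of the role lists outside the 43 numbered 43, and 74 with the replicate block, 81 at an adjusted p below 0.05 and 25 to 51 with 1 line left out. Rescaling moved the mean over lines of the median P5 minus parental difference from -0.22 to -0.060, and of the median share regained from 91.9% to 99.2%, while leaving out 1 of the 3 lines gave -0.29 to -0.17 and 88.6% to 94.9%. Of the 43 genes, the paired fit called 0 between P5 and parental, P5 and P12 and P12 and parental cells, as did the unpaired one and every other setting run. The 43 fold changes of P5 against resistant cells kept their direction under all settings run. Of 684 such values, 66 lost and 32 gained a call. The causes of these shifts were not tested, except that fits of fewer samples have a smaller number of residual degrees of freedom. With 3 P5 samples and a call that requires a log2 difference beyond 1, smaller differences from parental cells could not be called.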
